A study of Mus musculus with 18 samples.

Results

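Mature interstitial macrophages (matIMs) of mice in which Ezr, the gene of ezrin, was deleted in myeloid cells were compared with WT matIMs, in lungs taken 24 h after an inhaled dose of lipopolysaccharide (LPS). The comparison rests on 6 of the 18 libraries of the series: 3 from Ezr-KOm mice (Ez-KO in the labels) and 3 from WT mice, chosen by the population and genotype of each library. Ezr-KOm mice were Ezrin fl/fl on a B6 background and carried Cre recombinase at the Cx3cr1 locus (Cx3cr1tm1.1(cre)Jung/J), and the WT mice carried the same Cre allele with unfloxed Ezr, so Cre was shared by both genotypes. Mice were 3 to 5 months old by the study's methods, and each received LPS from Pseudomonas aeruginosa, 12.5 mg in 5 ml of saline, nebulized over 15 min. Cre driven by Cx3cr1 is not fully restricted to monocytes and macrophages: by the study, a Cx3cr1 reporter was also seen at a low level in conventional dendritic cells, eosinophils and NK cells. matIMs were sorted as CD45+CD11b+MHC-II+Ly6C- cells. The other 12 libraries, from monocyte-derived macrophages (moMs) and transitional interstitial macrophages (tnsIMs) of the same genotypes, helped to estimate the spread between libraries and gave the values set beside those of matIMs. By the legends, the sequencing data came from 3 mice of each genotype, and the labels do not name the mouse of a library. The populations may therefore share mice, while the fit treats the 18 libraries as independent.

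Ezrin belongs with moesin and radixin to the ERM family, which links membrane proteins to the cortical actin beneath the plasma membrane and so takes part in cell shape, adhesion and migration. Interstitial macrophages live in the tissue between the airspaces and the vessels, take up material there, present antigen on MHC class II and are renewed in part from blood monocytes. After LPS, monocytes enter the lung and pass through intermediate states before they resemble resident cells.

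The matIM libraries held 22464554 to 27709052 counts, and their TMM factors lay between 1.005 and 1.068. Levels are given in CPM, the count of a gene relative to its library's total after scaling by TMM (edgeR's trimmed mean of M values). On the first principal component of the 500 most variable genes, which took 31.9% of the variance, WT libraries lay between -19.5 and -5.99 and Ezr-KOm libraries between 4.42 and 22.1. The transcripts for MHC-II and Ly6C followed the gate. H2-Ab1, an MHC class II chain, was at 15360 CPM in WT matIMs, and Ly6c2, which encodes a Ly6C protein, was at 51.2 CPM against 481 CPM in WT moMs. Itgam, which encodes CD11b, was at 160 CPM in WT matIMs against 278 CPM in WT moMs. Itgax, which encodes CD11c, was at 657 CPM against 269 CPM, although the study took these cells from a CD11c-negative fraction. All 22 genes of a list of interstitial macrophage markers were measured, with Csf1r at 1473 CPM, C1qb at 751 CPM and Mertk at 18.3 CPM in WT, while Lyve1 (5.02 CPM) and Folr2 (0.438 CPM), which mark a perivascular subset, were low. None of the 22 met the study's rule for a difference between the genotypes. The 22 genes summed to 5730, 6591 and 5772 CPM in WT and 5596, 6167 and 6612 CPM in Ezr-KOm matIMs. Markers of migratory dendritic cells were also present, among them Ccl22 at 2633 CPM and Ccr7 at 1815 CPM in WT. Their 14 genes summed to 8449, 10850 and 7501 CPM in WT and 10380, 10800 and 9331 CPM in Ezr-KOm matIMs, more than the interstitial macrophage list in every library, although these sums cover different numbers of genes and are not scaled by length. The genotypes overlapped in both sums. The name matIM is therefore used here for the sorted gate, and its makeup was not tested.

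Ezr (ENSMUSG00000052397, chromosome 17, 7005440 to 7050183 of GRCm39), the targeted gene, was lower in every Ezr-KOm library. Its level was 741, 632 and 611 CPM in the 3 WT libraries and 167, 93.8 and 144 CPM in the 3 Ezr-KOm libraries. The groups lay far apart, and transcripts remained in each Ezr-KOm library. The log2 fold change was -2.29 (standard error 0.25, adjusted p = 7.73e-05, edgeR's quasi-likelihood test with Benjamini-Hochberg adjustment, used throughout). In bulk samples, fewer cells of a type and less RNA per cell cannot be told apart, so the remaining level does not say how many cells kept the gene. In moMs the log2 fold change was -1.20 and in tnsIMs -1.62. The difference of effect between matIMs and moMs was -1.10 on the log2 scale, with an unadjusted p of 0.00455 and an adjusted p of 1.00 over all genes.

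The other ERM genes differed by less than the spread between libraries. Msn, which encodes moesin, was at 2373 ± 104 CPM in WT libraries and 2278 ± 99.0 CPM in Ezr-KOm libraries (SD, n = 3 each), a log2 fold change of -0.06 with a standard error of 0.14. Rdx, which encodes radixin, was at 77.1 ± 9.03 CPM in WT libraries and 83.6 ± 13.5 CPM in Ezr-KOm libraries (SD, n = 3 each), a log2 fold change of 0.12 with a standard error of 0.16. Of 23 tested ERM genes and partners, 2 met the study's rule, both lower: Ezr itself and Pdpn, a membrane glycoprotein that binds ERM proteins. Over all tested genes 2.4% met it. Pdpn lies in the stretch of chromosome 4 from 130 to 160 Mb, where 7.36% did. The median log2 fold change of the 23 was -0.03, beside -0.00139 over all 15811 tested genes.

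The study called genes whose unadjusted p was below 0.05 and whose log2 fold change exceeded 0.75 in size. By this rule 379 of the 15811 tested genes differed between the genotypes in matIMs (2.4% of all tested). Of these 223 were higher (1.41% of all tested) and 156 lower (0.987%) in Ezr-KOm matIMs. At an adjusted p under 0.05, 24 genes passed (0.152% of all tested), 10 higher (0.0632%) and 14 lower (0.0885%). The calls were spread unevenly over the genome. On chromosome 17 from 0 to 30 Mb, the stretch that holds Ezr, 38 of 297 tested genes met the rule (12.8%), 21 higher and 17 lower. On chromosome 4 from 130 to 160 Mb, 24 of 326 met it (7.36%), 5 higher and 19 lower. In the rest of the genome 317 of 15188 met it (2.09%), 197 higher and 120 lower. At the adjusted threshold the same split gave 12, 3 and 9 genes. The libraries of the genotypes did not overlap for 29.3% of the chromosome 17 genes and 18.1% of the chromosome 4 genes, against 10.1% of all tested genes. Both intervals were picked with earlier results of these data known, and these shares describe them without a test. The labels number the replicates but do not say that equal numbers pair libraries, which was inferred from these data. With the number as a block, 38 genes passed the adjusted threshold in place of 24. Without WT replicate 3 or without Ezr-KOm replicate 3 that count was 15.

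**Figure D1:**
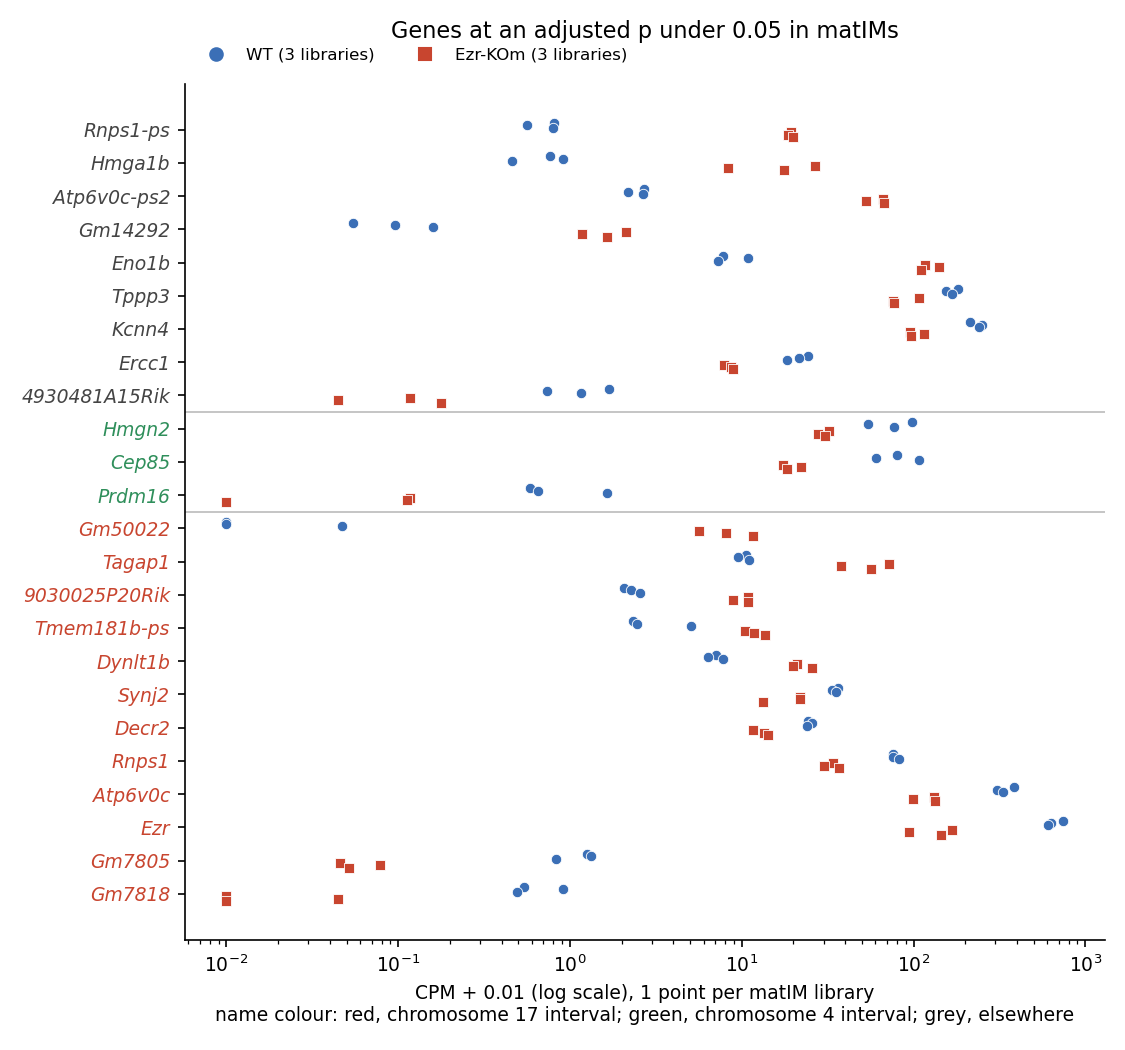
CPM of the 24 genes at an adjusted p under 0.05, on a log scale after adding 0.01, with 1 point for each matIM library (blue circles WT, red squares Ezr-KOm). No gene has overlapping genotypes. The top block holds the 9 genes outside the intervals, the middle block the 3 of the chromosome 4 interval and the bottom block the 12 of the chromosome 17 interval.

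Within about 1 Mb of Ezr, 4 further genes passed the adjusted threshold, and they went in both directions. Dynlt1b (chromosome 17, 6697511 to 6703695), a light chain of the dynein motor, was at 7.05, 6.37 and 7.75 CPM in WT and 20.8, 19.8 and 25.7 CPM in Ezr-KOm matIMs, a log2 fold change of 1.65 (standard error 0.17, adjusted p = 4.88e-05). It belongs to a family of close copies, and the neighbouring members Dynlt1a, Dynlt1c and Dynlt1f had log2 fold changes of -0.34, 0.14 and -0.58, none of which met the rule. Tagap1 (7222410 to 7228555), a putative GTPase activator, was at 10.5, 9.44 and 10.96 CPM in WT and 72.3, 37.7 and 56.6 CPM in Ezr-KOm matIMs (log2 fold change 2.43, adjusted p = 0.00338). Its sequence is 99.0% identical to that of Tagap over 77.0% of its length, so reads of these genes may be hard to separate, and Tagap itself had a log2 fold change of -0.24. Tmem181b-ps (6705923 to 6734421), a pseudogene next to Dynlt1b that is 99.4% identical to Tmem181a, rose by 1.87 on the log2 scale (adjusted p = 0.00689), while Tmem181a had a log2 fold change of 0.11. Synj2 (5991555 to 6094565), a phosphoinositide phosphatase of endocytosis, fell from 34.9 ± 1.37 CPM in WT to 18.9 ± 4.92 CPM in Ezr-KOm matIMs (SD, n = 3 each), a log2 fold change of -0.88 (adjusted p = 0.0475). Synj2 no longer passed when any 1 of the 6 libraries was left out, with adjusted p up to 0.317 without Ezr-KOm replicate 3. The neighbourhood of Ezr thus held genes that rose and genes that fell by more than the spread between libraries.

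Farther along the chromosome 17 interval, 7 genes passed the adjusted threshold. Atp6v0c (24382840 to 24388676), the membrane-embedded c subunit of the vacuolar proton pump that acidifies lysosomes, was at 384, 307 and 332 CPM in WT and 132, 99.8 and 133 CPM in Ezr-KOm matIMs (log2 fold change -1.49, adjusted p = 0.00115). Rnps1 (24633539 to 24644875), a splicing factor of the exon junction complex, was at 75.6, 75.6 and 82.6 CPM in WT and 34.1, 29.96 and 36.8 CPM in Ezr-KOm matIMs (log2 fold change -1.21, adjusted p = 0.000238). Both genes have near-identical copies elsewhere, treated further on. Decr2, an enzyme of peroxisomal fatty acid oxidation, fell from 24.6 ± 0.839 to 13.2 ± 1.33 CPM (SD, n = 3 each; log2 fold change -0.90, adjusted p = 0.0432), and it too lost the call when any 1 of the libraries was left out, with adjusted p from 0.162 to 0.341.

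A long non-coding RNA, a protein-coding gene and processed pseudogenes made up the remaining 4. Gm50022, a long non-coding RNA at 24998677 to 25000958, had 0, 0 and 1 counts in WT and 158, 234 and 276 counts in Ezr-KOm matIMs, 602 times as many at equal depth (95% counting interval 108 to 23804, adjusted p = 5.25e-08). 9030025P20Rik rose from 2.28 ± 0.247 to 10.2 ± 1.15 CPM (SD, n = 3 each; adjusted p = 0.00149). Its sequence is 99.7% identical to that of the nearby Gm3435 over 65.8% of its length. The processed pseudogenes Gm7805 and Gm7818 fell: their counts were 28, 31 and 22 in WT against 1, 2 and 1 in Ezr-KOm matIMs for Gm7805 (adjusted p = 0.00861) and 12, 21 and 13 against 0, 1 and 0 for Gm7818 (adjusted p = 0.032). Gm7818 lost the call when any 1 of the 6 libraries was left out (adjusted p up to 0.202), and Gm7805 when any 1 of the Ezr-KOm libraries was (up to 0.0844). Both lie within the span of the zinc finger gene Zfp943 on the opposite strand, which was also lower by the study's rule (log2 fold change -0.81), and since the library kit does not mark strand their reads cannot be told apart from its own. In all, 6 of the 24 genes overlap another gene of the table on the opposite strand.

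Among the chromosome 17 genes called by the rule alone were several with roles in myeloid cells. Pim1, a kinase induced by cytokine signals, was at 487, 262 and 221 CPM in WT and 946, 521 and 662 CPM in Ezr-KOm matIMs, so that every Ezr-KOm library lay above every WT library (log2 fold change 1.13, adjusted p = 0.788). With the replicate number as a block its adjusted p was 0.00455. Mmp25, a membrane-anchored matrix metalloproteinase of leukocytes, was at 49.0, 55.4 and 48.0 CPM in WT and 93.0, 101 and 132 CPM in Ezr-KOm matIMs (log2 fold change 1.09, adjusted p = 0.307). Gpr31c, a receptor pseudogene, was at 5.31 ± 1.87 CPM in WT libraries and 19.9 ± 1.40 CPM in Ezr-KOm libraries (SD, n = 3 each; adjusted p = 0.0795, and 0.0149 with the block). Tmem242 was at 24.8 ± 4.10 CPM in WT libraries and 46.0 ± 1.63 CPM in Ezr-KOm libraries (SD, n = 3 each; adjusted p = 0.202, and 0.0326 with the block). Prss41, a serine protease, had no count in the WT libraries and 22, 12 and 9 counts in the Ezr-KOm libraries, at least 12.9-fold higher against a floor of 3 counts over the WT group. Pkmyt1, a kinase that holds CDK1 inactive before mitosis, was at 13.4 ± 1.72 CPM in WT libraries and 7.43 ± 2.00 CPM in Ezr-KOm libraries (SD, n = 3 each), lower by the rule with an adjusted p of 0.773.

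On the distal part of chromosome 4, 3 genes passed the adjusted threshold, all lower. Cep85 (133857169 to 133914423), a protein of the centrosome, was at 79.9, 60.8 and 108 CPM in WT and 17.4, 22.2 and 18.3 CPM in Ezr-KOm matIMs (log2 fold change -2.10, standard error 0.31, adjusted p = 0.0029). Hmgn2 (133692049 to 133695961), a chromatin protein that binds nucleosomes, was at 98.6, 54.5 and 77.4 CPM in WT and 32.3, 27.9 and 30.4 CPM in Ezr-KOm matIMs (log2 fold change -1.35, adjusted p = 0.0172). The Ezr-KOm libraries of both genes lay close together and well below the WT range. Hmgn2 has near-identical copies outside the intervals, which include Hmgn2-ps on chromosome 8 and Gm6724 on chromosome 18. They are 99.3% and 97.8% identical to it and had log2 fold changes of 0.53 and 3.17. Gm6724 was low, with means of 0.084 CPM in WT and 0.78 CPM in Ezr-KOm matIMs. Whether reads of Hmgn2 were counted on its copies was not tested, so its level is uncertain. When 1 library other than WT replicate 2 was left out, the adjusted p of Hmgn2 lay between 0.0632 and 0.185. Prdm16, a transcriptional regulator best known from brown fat, was near the detection limit, with 13, 15 and 44 counts in WT and 3, 3 and 0 counts in Ezr-KOm matIMs (adjusted p = 0.0351). Its adjusted p was 0.251 without WT replicate 3, and between 0.115 and 0.192 when 1 of the Ezr-KOm replicates was left out.

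The rule-only genes of the chromosome 4 interval were also mostly lower. Pdpn was at 20.1, 7.26 and 11.7 CPM in WT and 4.30, 2.65 and 1.30 CPM in Ezr-KOm matIMs (log2 fold change -2.23, adjusted p = 0.0972, and 0.000405 with the block). Sfn, a 14-3-3 protein, was at 3.44 ± 1.48 CPM in WT libraries and 0.621 ± 0.518 CPM in Ezr-KOm libraries (SD, n = 3 each; adjusted p = 0.255, and 0.00567 with the block). The peptidylarginine deiminases Padi4 and Padi2, which convert arginine to citrulline in proteins, had log2 fold changes of -1.52 and -0.88, with adjusted p of 0.27 and 0.522. Tcea3, a transcription elongation factor, was at 1.07 ± 0.225 CPM in WT libraries and 0.121 ± 0.0456 CPM in Ezr-KOm libraries (SD, n = 3 each; adjusted p = 0.0789). Of the 5 higher genes, Tnfrsf14, the receptor HVEM of the TNF receptor family, had the smallest p, at 5.72 ± 1.40 CPM in WT libraries and 12.05 ± 1.28 CPM in Ezr-KOm libraries (SD, n = 3 each; adjusted p = 0.379, and 0.0223 with the block). The complement genes C1qa, C1qb and C1qc, which mark interstitial macrophages and lie in the same interval, had log2 fold changes of 0.04, 0.05 and 0.14.

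At the edges of the intervals the called genes thinned out. The last called gene inside the chromosome 17 interval was Pim1, 0.290 Mb before its end, and the first beyond it was Glp1r, 1.12 Mb after it, with a log2 fold change of -1.14 and no overlap between the genotypes. Between 30 and 35 Mb, 5 of 113 tested genes met the rule (4.42%), and between 35 and 40 Mb 1 of 95 did (1.05%). On chromosome 4 the first called gene inside was Smpdl3b at 2.46 Mb and the nearest outside was Gja4 at 2.80 Mb from the lower edge, with log2 fold changes of -1.09 and -0.89.

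**Figure D2:**
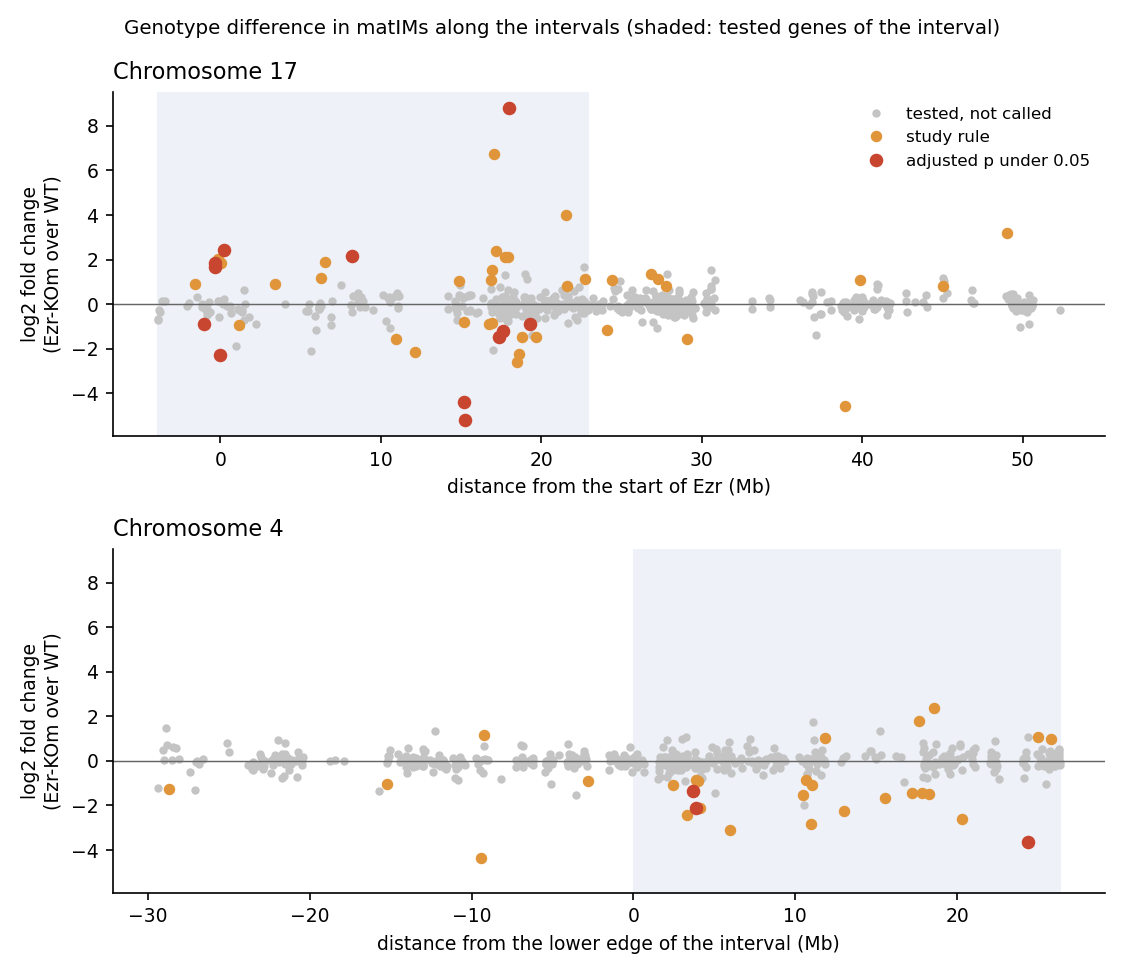
Log2 fold change of each tested gene in matIMs (Ezr-KOm over WT) against its distance in Mb from the start of Ezr on chromosome 17 (top) and from the lower edge of the interval on chromosome 4 (bottom). Grey genes were not called, orange genes met the study's rule and red genes had an adjusted p under 0.05; the shading covers the tested genes of each interval, where 38 of 297 and 24 of 326 genes met the rule. Red genes lie on either side of Ezr, the farthest being Decr2 at 19.3 Mb.

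Outside the intervals, the 5 genes that rose at the adjusted threshold were all near-identical copies of genes inside them. Atp6v0c-ps2 on chromosome 6 is 99.8% identical to Atp6v0c, Rnps1-ps on chromosome 6 is 99.4% identical to Rnps1, Hmga1b on chromosome 11 is 99.8% identical to Hmga1, Gm14292 on chromosome 2 is 99.3% identical to Wtap, and Eno1b is 99.5% identical to Eno1, the glycolytic enolase in the chromosome 4 interval. Hmga1 encodes a DNA-binding chromatin protein, and Wtap a subunit of the complex that methylates adenosine in mRNA. Of the 15188 tested genes outside the intervals, 101 were such copies of an interval gene (0.665%), defined by at least 90% identity over at least 80% of the copy. They made up 14 of the 197 genes that were higher by the rule (7.11%) and 1 of the 120 that were lower (0.833%).

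Few bases separate a parent from its copy. The lines show, for 3 pairs, a stretch of 29 bases of the reference from a coding exon of the parent and the matching stretch of the copy, both 5′ to 3′ along the transcript of the parent, with the base that differs in capitals. Positions are counted from 1 at the 5′ end of the stretch.
Atp6v0c, chr17:24383811-24383839, minus strand: ggcacagccaagagTggcactggcatcgc
Atp6v0c-ps2, chr6:37783117-37783145, plus strand, T15C: ggcacagccaagagCggcactggcatcgc
Rnps1, chr17:24639181-24639209, plus strand: tctaggtccagctcCacctccagctcggg
Rnps1-ps, chr6:7983199-7983227, minus strand, C15A: tctaggtccagctcAacctccagctcggg
Wtap, chr17:13199719-13199747, minus strand: cggctagcaaccaaAgagcaggagatgca
Gm14292, chr2:178819452-178819480, plus strand, A15G: cggctagcaaccaaGgagcaggagatgca
The whole Atp6v0c-ps2 sequence differed from Atp6v0c at 1 base, that of Rnps1-ps from Rnps1 at 5 and that of Gm14292 from Wtap at 3, over the ungapped alignment of each pair. The sequences are those of the GRCm39 reference, and no base was read from the mice.

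In each of the 5 pairs the parent had a negative and the copy a positive log2 fold change, and that of their sum was closer to 0 than either. The copies were chosen because they rose, and the ratio of a sum lies between those of its members. That the sum lay above its parent was therefore fixed in advance. Atp6v0c-ps2 was at 2.705, 2.18 and 2.65 CPM in WT and 66.0, 53.0 and 67.5 CPM in Ezr-KOm matIMs (log2 fold change 4.63, standard error 0.19, adjusted p = 2.81e-11). It took 0.699% to 0.792% of the counts of the pair in WT and 33.4% to 34.7% in Ezr-KOm matIMs. With the counts of parent and copy added, the pair was at 343 ± 39.7 CPM in WT libraries and 184 ± 27.0 CPM in Ezr-KOm libraries (SD, n = 3 each), a log2 fold change of -0.90 that passed the adjusted threshold (adjusted p = 0.0468). The sums of all pairs were formed after seeing the data.

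No other pair passed the adjusted threshold once summed. Rnps1-ps was at 0.798, 0.555 and 0.783 CPM in WT and 19.4, 18.6 and 19.8 CPM in Ezr-KOm matIMs, and its share of the pair was at most 1.04% in WT libraries and at least 34.99% in Ezr-KOm libraries. The summed pair was at 78.6 ± 4.09 CPM in WT libraries and 52.9 ± 4.03 CPM in Ezr-KOm libraries (SD, n = 3 each; log2 fold change -0.57, adjusted p = 0.248). Gm14292 had 1, 2 and 4 counts in WT and 59, 34 and 39 counts in Ezr-KOm matIMs, and lost the call when any 1 library but Ezr-KOm replicate 2 was left out (adjusted p from 0.0779 to 0.232). Hmga1b was at 0.754, 0.897 and 0.447 CPM in WT and 26.9, 8.26 and 17.6 CPM in Ezr-KOm matIMs, and Hmga1 with Hmga1b summed to a log2 fold change of -0.07 (standard error 0.17). Eno1b was at 8.67 ± 1.94 CPM in WT libraries and 123 ± 15.5 CPM in Ezr-KOm libraries (SD, n = 3 each), and Eno1 with Eno1b had a log2 fold change of -0.27 (standard error 0.19), with every Ezr-KOm library below every WT library. Gm14292 took 4.07% to 6.94% of the counts of its pair in Ezr-KOm matIMs, against at most 0.377% in WT, and the sum with Wtap had a log2 fold change of -0.09 (standard error 0.19). Whether reads of a parent were counted on its copy was not tested, so the levels of both members of each pair are uncertain. With these 5 copies added to their parents before the fit, 15 genes passed the adjusted threshold, 5 higher and 10 lower. The 5 copies were then no longer tested as genes of their own, and 4 other genes lost the call.

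**Figure D3:**
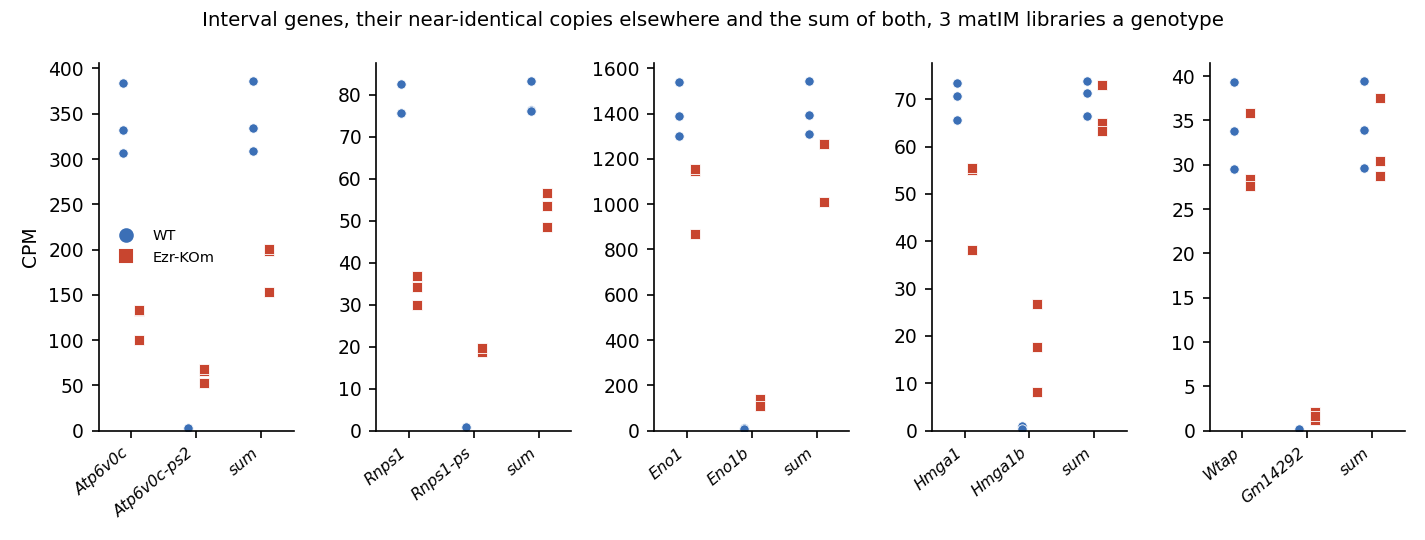
CPM of 5 genes of the intervals, of their near-identical copies elsewhere, and of the sum, with 1 point for each matIM library (blue circles WT, red squares Ezr-KOm) and axes that start at 0. For Atp6v0c, Rnps1 and Eno1 the Ezr-KOm libraries stay below the WT libraries after summing, and for Hmga1 and Wtap the genotypes overlap in the sum.

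The 4 genes elsewhere that fell at the adjusted threshold had no close match at an identity of at least 90% over at least 50% of their length. The same search found none for Atp6v0c, Rnps1 and Hmgn2, whose copies are described above. It therefore cannot show that the 4 genes lack copies. Ercc1 (chromosome 7, 19078703 to 19090449), a subunit of the nuclease that excises damaged DNA, was at 24.2, 21.7 and 18.2 CPM in WT and 7.85, 8.70 and 8.89 CPM in Ezr-KOm matIMs (log2 fold change -1.33, standard error 0.20, adjusted p = 0.00338). Kcnn4 (chromosome 7, 24069688 to 24086115), a potassium channel opened by calcium, was at 212, 250.5 and 241 CPM in WT and 95.01, 116 and 97.1 CPM in Ezr-KOm matIMs (log2 fold change -1.19, standard error 0.20, adjusted p = 0.0138). Both fell in moMs and tnsIMs too, with log2 fold changes of -1.35 and -1.02 for Ercc1 and -1.55 and -1.65 for Kcnn4, all at an adjusted p under 0.05. In matIMs the adjusted p of Kcnn4 lay between 0.0632 and 0.137 without WT replicate 2 or 3 or without Ezr-KOm replicate 1 or 3, each left out alone. Tppp3 (chromosome 8, 106194125 to 106198158), a protein that bundles microtubules, was at 181, 154 and 167 CPM in WT and 108, 75.5 and 77.0 CPM in Ezr-KOm matIMs (log2 fold change -0.95, adjusted p = 0.0416). It lost the call when any 1 library but Ezr-KOm replicate 1 was left out (adjusted p from 0.15 to 0.457), and its log2 fold change was -0.43 in moMs and -0.76 in tnsIMs, where it did not pass. 4930481A15Rik, a long non-coding RNA on chromosome 19, had 38, 17 and 31 counts in WT and 3, 1 and 4 counts in Ezr-KOm matIMs (adjusted p = 0.0351). Its adjusted p lay between 0.105 and 0.297 when any 1 library but WT replicate 2 was left out.

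Ercc1 and Kcnn4 lie about 5 Mb apart on chromosome 7, a stretch singled out after their values were seen. Between 15 and 25 Mb of that chromosome, 6 of 117 tested genes were called (5.13%, against 2.4% of all tested), Ercc1 and Kcnn4 among them and 1 of them higher. The genotypes did not overlap for 17 genes (14.5%, against 10.1% of all tested). C5ar2, a decoy receptor for the complement fragment C5a, was at 2.22, 2.05 and 2.94 CPM in WT and 0.681, 1.27 and 0.419 CPM in Ezr-KOm matIMs (log2 fold change -1.58, adjusted p = 0.27). Gpr4, a proton-sensing receptor, was the higher gene (log2 fold change 1.00, adjusted p = 0.735).

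Of the other genes outside the intervals, the following were among the higher ones with the smallest p. C7, a late complement component, was at 1.596, 1.54 and 1.38 CPM in WT and 5.81, 2.75 and 3.56 CPM in Ezr-KOm matIMs (log2 fold change 1.43, adjusted p = 0.102). Ccn5, a matricellular protein, was at 1.064, 2.35 and 1.34 CPM in WT and 4.05, 6.54 and 5.87 CPM in Ezr-KOm matIMs (log2 fold change 1.79, adjusted p = 0.145). Pdgfra, the PDGF receptor of fibroblasts, was at 1.46, 1.92 and 1.19 CPM in WT and 4.73, 4.95 and 3.77 CPM in Ezr-KOm matIMs (log2 fold change 1.56, adjusted p = 0.147). These genes were taken from those whose genotypes did not overlap, so the separation of their libraries was fixed by that choice. With the replicate number as a block, Ccn5 and Pdgfra passed the adjusted threshold (adjusted p = 0.000356 and 0.019). Tnc, a matrix glycoprotein of injured tissue, and Adamts15, a protease of proteoglycans, were at 0.311 ± 0.140 and 0.207 ± 0.157 CPM in WT matIMs and 1.42 ± 0.372 and 1.22 ± 0.184 CPM in Ezr-KOm matIMs (SD, n = 3 each), with adjusted p of 0.226 and 0.227.

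Some of the higher genes were expressed at more than a trace. Cnbd2, which holds a cyclic nucleotide binding domain, was at 14.01, 14.6 and 14.4 CPM in WT and 76.3, 47.4 and 68.5 CPM in Ezr-KOm matIMs (log2 fold change 2.16, adjusted p = 0.131), and its log2 fold change was 1.94 in moMs and 2.34 in tnsIMs. Cp, the copper-binding ferroxidase ceruloplasmin, was at 18.9 ± 6.12 CPM in WT libraries and 37.7 ± 6.84 CPM in Ezr-KOm libraries (SD, n = 3 each; log2 fold change 0.99, adjusted p = 0.138). Siglec1, a sialic acid receptor of macrophages that interferon induces, was at 10.5, 12.99 and 12.1 CPM in WT and 20.1, 22.6 and 27.3 CPM in Ezr-KOm matIMs (log2 fold change 0.97, adjusted p = 0.314). Exo5, a DNA exonuclease, had a log2 fold change of 1.17 (adjusted p = 0.219).

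Among the lower genes that missed the adjusted threshold, Emb had the smallest p outside the intervals. Emb (chromosome 13), a membrane glycoprotein that escorts a lactate transporter, was at 188, 169.9 and 178 CPM in WT and 72.2, 92.5 and 111 CPM in Ezr-KOm matIMs (log2 fold change -0.96, standard error 0.20, adjusted p = 0.0795, and 0.00498 with the block). Its log2 fold change was -0.90 in moMs and -0.71 in tnsIMs. Gdf3, a TGF-beta family ligand, was at 34.1 ± 6.52 CPM in WT libraries and 16.9 ± 2.27 CPM in Ezr-KOm libraries (SD, n = 3 each; adjusted p = 0.379). Rab6b, a GTPase of Golgi traffic, and Cyp11a1, which starts steroid synthesis from cholesterol, were low throughout, with 94 and 52 counts summed over the WT libraries and 4 and 3 over the Ezr-KOm libraries.

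The genes called outside the intervals were mostly low. Their median level over the 6 libraries was 0.951 CPM, against 11 CPM for all 15188 tested genes there, and 167 of the 317 (52.7%) lay under 1 CPM, against 22.6% of all. Only 6 were above 100 CPM: Kcnn4, Tppp3, Emb, Cxcl13, Saa3 and Irf2bp2. Saa3, an acute phase serum amyloid protein, was at 85.04, 105 and 39.8 CPM in WT and 118, 173 and 186 CPM in Ezr-KOm matIMs (log2 fold change 1.05, adjusted p = 0.451). For Irf2bp2, a transcriptional corepressor, the call rested on Ezr-KOm replicate 3 at 268 CPM, since the other Ezr-KOm libraries, at 76.9 and 69.3 CPM, lay within or below the WT range of 71.3 to 83.8 CPM. These 2 genes were named after their values were seen.

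The genes called in matIMs were looked up in the other populations. Those are separate libraries that may come from the same mice, so a call that recurs in them is not independent support for that in matIMs. In moMs, 2.51% of tested genes met the rule between the genotypes, and in tnsIMs 1.83%. Of the 38 genes called in matIMs on the chromosome 17 interval, 27 met the rule in the same direction in moMs, 26 in tnsIMs and 24 in both (63.2%). Of the 24 on the chromosome 4 interval the counts were 16, 17 and 14 (58.3%). Of the 317 elsewhere they were 45, 45 and 23 (7.26%), and 250 met it in neither. Those 23 included the 5 copies named above as well as Ercc1, Kcnn4, Cnbd2, Ccn5, Pdgfra, Adamts15, C5ar2 and Glp1r. A call in 1 population and not in another does not show that the effects differ. Tested gene by gene, no difference of effect passed an adjusted p under 0.05 between matIMs and moMs or between matIMs and tnsIMs (0 of 15811, 0%), while 268 genes (1.7%) and 183 genes (1.16%) had an unadjusted p below 0.05. DESeq2 gave 0 genes at the adjusted threshold and 342 and 218 at the unadjusted one.

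**Figure D4:**
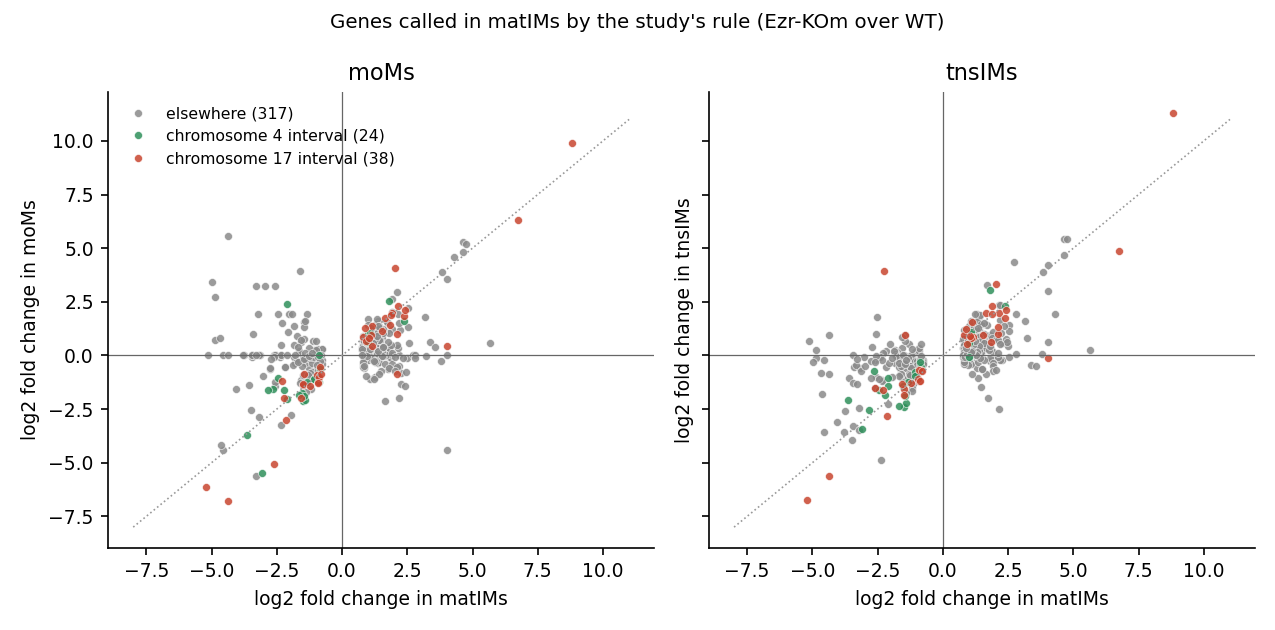
Log2 fold change (Ezr-KOm over WT) of the 379 genes called in matIMs by the study's rule, on the horizontal axis, against the same gene in moMs (left) and tnsIMs (right), with the dotted line at equal values. Red genes lie on the chromosome 17 interval, green on the chromosome 4 interval and grey elsewhere. Red and green genes mostly follow the line, and of the 317 grey genes 250 met the rule in neither other population.

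In 4 lists of cell cycle genes (S phase, G2/M, DNA polymerases, and cyclins with CDK inhibitors) no gene was called. Over all tested genes 2.4% were called. Most log2 fold changes in these lists were negative. Pkmyt1, described above, is in none of these lists. Of 43 S phase genes 35 had a negative log2 fold change, the median was -0.18, and 0 met the rule. Gmnn, which blocks a further round of replication licensing, was at 10.2, 10.3 and 8.91 CPM in WT and 6.63, 6.30 and 6.37 CPM in Ezr-KOm matIMs (log2 fold change -0.61, adjusted p = 1.00). The 43 genes summed to 943 to 1090 CPM in WT and 868 to 982 CPM in Ezr-KOm matIMs, overlapping ranges. Of 53 G2/M genes 34 were negative, with a median of -0.06, and the mitotic kinase Aurkb had the smallest p, at 7.15 ± 0.608 CPM in WT libraries and 4.33 ± 0.578 CPM in Ezr-KOm libraries (SD, n = 3 each; log2 fold change -0.72, adjusted p = 0.777). Mki67, a marker of cycling cells, had a log2 fold change of 0.40. The DNA polymerase subunit Pola2 was at 38.7, 34.0 and 36.4 CPM in WT and 33.0, 30.8 and 26.3 CPM in Ezr-KOm matIMs (log2 fold change -0.28, unadjusted p 0.0488), below the size the rule asks for. The cyclins Ccnd1 and Ccnd2 had log2 fold changes of -0.54 and 0.04, with standard errors of 0.44 and 0.17.

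Calls among genes of adhesion and of the signalling that follows it are set beside 2.4% called over all tested genes. Counts this small are not read as a result about a list. Of 23 integrin genes 1 met the rule, Itga2b, higher and near 1 to 3 CPM, and the median was -0.04. Itga1, the collagen-binding alpha chain, was at 7.09, 7.48 and 7.23 CPM in WT and 5.99, 4.64 and 3.27 CPM in Ezr-KOm matIMs (log2 fold change -0.64, adjusted p = 1.00), and Itgb1, its partner, had a log2 fold change of 0.10. None of 45 focal adhesion and cortical actin genes and none of 29 PI3K and Akt genes met the rule, with medians of -0.06 and 0.04 and, across the 45, log2 fold changes from -0.52 to 0.57. Of 30 apoptosis genes 1 met it, Bik, which was lower.

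Matrix proteases and serpins had positive medians. Of 20 metalloproteinase, ADAMTS and TIMP genes 4 were higher by the rule (Adamts15, Timp4, Mmp3 and Mmp25 of the chromosome 17 interval) and 1 was lower (Mmp19), beside 1.41% of all tested genes higher and 0.987% lower and 12.8% called in the chromosome 17 interval. The median log2 fold change of the 20 was 0.31. Mmp3, stromelysin, was at 1.02, 1.28 and 0.708 CPM in WT and 3.94, 2.51 and 1.22 CPM in Ezr-KOm matIMs, overlapping by 1 library, and Timp4 had 0 counts in WT against 13, 5 and 2 in Ezr-KOm matIMs, at least 6.01-fold higher against the floor of 3 counts over the group. Mmp13, a collagenase, was at 14.9, 10.4 and 7.68 CPM in WT and 22.1, 14.8 and 14.1 CPM in Ezr-KOm matIMs, overlapping groups (log2 fold change 0.63, unadjusted p 0.0432), so it fell short of the rule's size. Mmp12, macrophage elastase, had a log2 fold change of 0.10. Of 17 serpins 2 met the rule, both higher, with a median of 0.26. With lists of this size and 2.4% of all tested genes called, counts of 1 or 2 are not read as a result about a list. Serpina3m was at 0.458 ± 0.326 CPM in WT libraries and 1.10 ± 0.332 CPM in Ezr-KOm libraries, and Serpina3n at 5.91 ± 1.39 and 9.22 ± 1.84 CPM (SD, n = 3 each), with log2 fold changes of 1.28 and 0.65. The abundant Serpina3g, at 59.1 ± 18.9 CPM in WT, had a log2 fold change of -0.00392. These Serpina3 genes are close relatives, so reads may be shared among them. Of 18 collagens 1 met the rule: Col18a1 was at 0.532, 1.07 and 1.602 CPM in WT and 1.61, 2.86 and 2.89 CPM in Ezr-KOm matIMs (log2 fold change 1.18, adjusted p = 1.00).

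Of 13 fibroblast markers 12 had a positive log2 fold change, the median was 0.35, and Pdgfra and Lum met the rule. Over all tested genes 1.41% were higher by the rule. Lum was at 0.177, 0.342 and 0.633 CPM in WT and 0.394, 0.860 and 2.01 CPM in Ezr-KOm matIMs, overlapping groups. Col1a2, a collagen I chain, was at 3.62 ± 0.841 CPM in WT libraries and 5.53 ± 0.442 CPM in Ezr-KOm libraries (SD, n = 3 each). Gsn, the most abundant member, which macrophages also express, was at 816 ± 21.9 CPM in WT libraries and 717 ± 23.7 CPM in Ezr-KOm libraries (SD, n = 3 each). All 13 markers summed to 883, 862 and 830 CPM in WT and 806, 763.5 and 753.5 CPM in Ezr-KOm matIMs, lower without overlap. Without Gsn, the 12 other markers summed to 42.1, 53.1 and 30.2 CPM in WT and 62.8, 53.7 and 55.7 CPM in Ezr-KOm matIMs. That sum was higher without overlap, by a margin of less than 1 CPM, so the direction depended on Gsn. The part of fibroblast RNA in the differences of matrix genes was not tested.

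**Figure D5:**
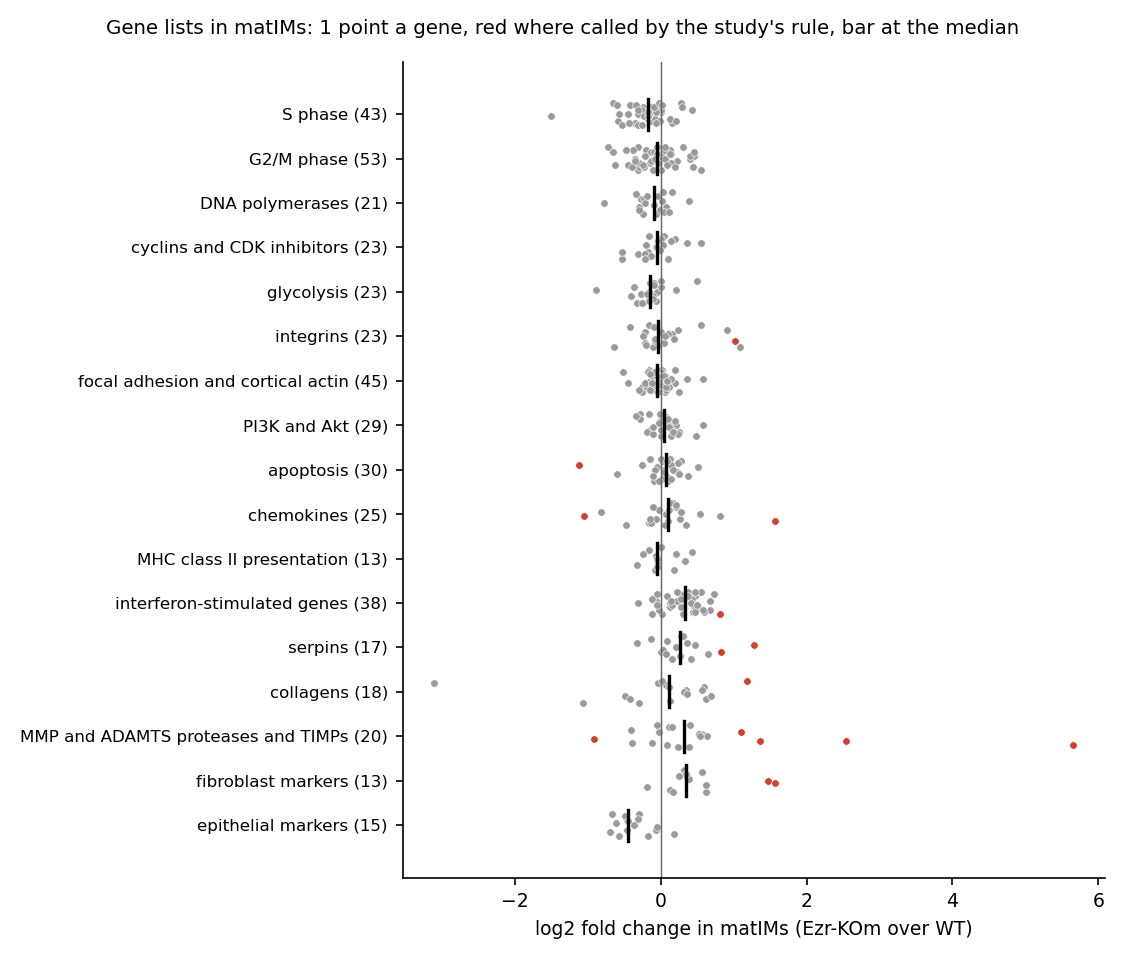
Log2 fold change in matIMs (Ezr-KOm over WT) of the tested members of 17 gene lists, 1 point a gene, with red for genes that met the study's rule and a black bar at the list's median. Medians run from -0.45 for epithelial markers to 0.35 for fibroblast markers, and red points are few in each list. The point beyond 5 is Timp4, whose fitted value depends on WT libraries with 0 counts.

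Among chemokines and cytokines, 2 genes were called, beside 2.4% of all tested genes. A count this small is not read as a result about a list. Cxcl13, the chemokine that draws B cells, was at 130.3, 320 and 178 CPM in WT and 297, 806 and 759 CPM in Ezr-KOm matIMs (log2 fold change 1.57, standard error 0.38, adjusted p = 0.219, and 0.00754 with the block). The lowest Ezr-KOm library lay below the highest WT library, while each Ezr-KOm library lay above the WT library of its own number. Cxcl5, which attracts neutrophils, was at 2.79, 3.46 and 2.68 CPM in WT and 1.97, 1.17 and 1.13 CPM in Ezr-KOm matIMs (log2 fold change -1.06, adjusted p = 0.777). These were the only called genes among 25 chemokines, and 0 of 27 cytokines, 0 of 14 chemokine receptors and 0 of 15 NF-kappaB subunits and inhibitors were called. Ccl5 was at 527, 721 and 387 CPM in WT and 701, 957 and 707 CPM in Ezr-KOm matIMs, overlapping groups with a log2 fold change of 0.53 and a standard error of 0.41. The scavenger receptor Marco had a log2 fold change of 0.74 and a standard error of 0.52.

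Interferon-stimulated genes leaned higher, in 2 of the 3 Ezr-KOm libraries. Of 38 such genes 31 had a positive log2 fold change, with a median of 0.33, and 1 met the rule. This was Ifi44, at 8.42, 8.89 and 11.2 CPM in WT and 20.6, 12.4 and 17.1 CPM in Ezr-KOm matIMs (log2 fold change 0.81, adjusted p = 1.00). Irf7, the transcription factor that amplifies the interferon response, was at 429, 431 and 376 CPM in WT and 720.1, 495 and 650.2 CPM in Ezr-KOm matIMs (log2 fold change 0.59, unadjusted p 0.0205). The 38 genes summed to 5329, 4439 and 5182 CPM in WT and 7489, 4205 and 6490 CPM in Ezr-KOm matIMs. The second Ezr-KOm library lay below the WT range and the others above it.

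No antigen presentation gene was called, and glycolysis genes leaned lower. Of 13 MHC class II presentation genes and 20 MHC class I presentation genes 0 met the rule, with medians of -0.05 and 0.00394. Over all tested genes 2.4% met it. Of 23 glycolysis genes 19 were negative, with a median of -0.15 and 0 called. Ldha, lactate dehydrogenase, was at 1120, 875 and 947 CPM in WT and 916, 761 and 763 CPM in Ezr-KOm matIMs, which overlap by 1 library (log2 fold change -0.27), and Pkm, pyruvate kinase, had a log2 fold change of -0.16. Of the subunits and partners of the called interval genes, 1 of 19 tested V-ATPase genes met the rule, Atp6v0c itself, as did 1 of 17 exon junction and splicing genes, Rnps1, and 1 of 9 dynein light chain genes, Dynlt1b.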

How the data were processed

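RNA of sorted lung macrophages was sequenced in 18 libraries, 3 for each of 3 populations and 2 genotypes, and the 6 matIM libraries (22464554 to 27709052 counts each) are described here. The authors deposited raw counts per gene, made with STAR 2.7.9a on GRCm39. Whether counting used strand is not given in the sources used here, and the library kit does not mark strand. The table names 21254 genes with their positions, and 0 columns of sample values were left unmapped.

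Genes were kept by edgeR's filterByExpr with a minimum count of 10 (15811 kept, 5443 not), scaled by TMM and fitted in one model of the 6 groups over all 18 libraries with the quasi-likelihood test (R 4.3.3, edgeR 4.0.16, limma 3.58.1). Benjamini-Hochberg adjustment ran over all 15811 genes. The study's rule asked for an unadjusted p below 0.05 and a log2 fold change beyond 0.75 in either direction. Differences of effect between populations were interaction contrasts of the same model. Standard errors of single genes came from the same fit, and ± marks the SD over 3 libraries. Folds against a group with 0 counts used a floor of 3 counts over that group, and ratios on 1 to 3 counts carry a 95% counting interval. Both cover counting error only. Copies were found by blastn 2.17.0 between transcripts of the reference (identity of at least 90% over at least 80% of the copy). The fit was tested on simulated data.

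Alternatives were DESeq2 1.42.0, upper-quartile scaling, other filters, the matIM libraries alone, each library left out and the replicate number as a block. The labels number the replicates. In matIMs, same-numbered WT and Ezr-KOm libraries deviated together from their group means (r = 0.226, 0.15 and 0.102, against at most 0.0321 for other numbers). The numbers were therefore taken to pair the libraries in the fits with the block. The main fit does not pair them, so its p-values and counts leave this pairing out.

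The text names Ezr, Msn and Rdx and every gene at an adjusted p under 0.05. It also names the leading genes by p in each direction outside and inside the intervals. Outside the intervals, these leading genes had to meet the study's rule without overlap between the genotypes. Inside them, only the rule was asked. Genes the study discusses for matIMs and up to 4 members of each gene list were named too. The intervals, members and lists were chosen with earlier results of these data known. Pim1, Siglec1, Irf7, Col1a2, Gsn, Mki67, Mmp19, Gpr4, Ldha, Pkm, the C1q genes, the genes nearest the interval edges and those of the closing observations were named beyond this rule, after their values were seen.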

Additional observations from a re-analysis of the deposited data

How the results depend on the processing

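Ezr and the called genes chosen by the naming rule kept their direction in the settings in which they were fitted, and called genes named beyond that rule were not followed across settings. Of the values given without a call, Serpina3g ranged from -0.23 to 0.25 on the log2 scale, Mmp12 from -0.07 to 0.26 and Ccnd2 from -0.09 to 0.14. Ezr stayed past the adjusted threshold in all settings, with log2 fold changes from -2.48 to -2.09. The count of matIM genes at an adjusted p under 0.05 was 24, 10 higher and 14 lower. It was 52 with DESeq2 (29 higher and 23 lower) and 15 with a minimum of 10 counts in every matIM library (8 higher). With the replicate block it was 38 (21 higher and 17 lower). Summing the called copies into their parents, which removes these copies as tested genes, gave 15. The side with more genes thus depended on the setting. Leaving out 1 library gave 15 to 19, the lowest without WT replicate 3 and without Ezr-KOm replicate 3. All 24 genes were among the 38 of the block, which pairs libraries by number, and the block gave 465 genes by the study's rule. By that rule, the 379 genes became 662 without a filter on low counts and 181 with the minimum of 10 counts. The 317 genes outside the intervals became 585 and 140, the latter 72.9% higher against 62.1%. The 38 genes of the chromosome 17 interval became 25 with the minimum. Leaving out 1 library gave 352 to 493 genes by the rule. Of the called genes outside the intervals 52.7% lay under 1 CPM, and which differences 3 libraries a group can detect at such levels was not tested. The cause of each shift was not tested.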

Other observations

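Immunoglobulin transcripts were lower on balance in Ezr-KOm matIMs. Of 168 tested immunoglobulin genes 33 met the study's rule (19.6%, against 2.09% of all tested genes outside the intervals), 5 higher and 28 lower, and 0 passed the adjusted threshold of edgeR's test. The median log2 fold change of the 168 was -0.68 in matIMs, 0 in moMs and 0.15 in tnsIMs, and 118 were negative in matIMs. A log2 fold change of 0 in moMs can mean absent transcripts, and Ighg3, described next, was at 0 CPM there in both genotypes. The moM median thus does not show unchanged levels. For the 11 constant genes the medians were -0.49 in matIMs, -0.47 in moMs and 0.30 in tnsIMs. Ighg3, the constant part of an IgG heavy chain, was at 7.85, 12.5 and 2.16 CPM in WT and 2.01, 0.998 and 0.880 CPM in Ezr-KOm matIMs (log2 fold change -2.53, adjusted p = 0.281). Ighv3-6, a variable segment, was at 13.1, 20.9 and 17.5 CPM in WT and 8.35, 6.399 and 2.22 CPM in Ezr-KOm matIMs (log2 fold change -1.60, adjusted p = 0.499). Summed over the 168 genes, the level was 4590, 5705 and 3532 CPM in WT and 4710, 3414 and 1943 CPM in Ezr-KOm matIMs, overlapping groups. Variable segments are close relatives of each other, so their single values are uncertain. The 16 markers of B and plasma cells summed to 854 to 1033 CPM in WT and 620 to 854 CPM in Ezr-KOm matIMs, with a median log2 fold change of -0.22, and Ighm was at 309 ± 52.1 and 199 ± 88.4 CPM (SD, n = 3 each). The part of B cell RNA in these values was not tested.

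Markers of other cell types were also measured, and the source of their transcripts was not tested. The 15 epithelial markers summed to 700, 619 and 669 CPM in WT and 589, 441 and 391 CPM in Ezr-KOm matIMs, non-overlapping groups with 14 genes of 15 negative and 0 called. Cdh1, an adhesion molecule that dendritic cells can also express, was the most abundant, at 238 ± 24.5 CPM in WT libraries and 172 ± 9.71 CPM in Ezr-KOm matIMs (SD, n = 3 each), and without it the groups overlapped. The 15 neutrophil markers summed to 406 to 487 CPM in WT and 345 to 663 CPM in Ezr-KOm matIMs, highest in Ezr-KOm replicate 3, and only Padi4, which lies in the chromosome 4 interval, met the rule. Sums of monocyte, alveolar macrophage, conventional dendritic cell, endothelial and T or NK cell markers overlapped between the genotypes, with medians of -0.06, -0.04, -0.03, -0.08 and 0.01.

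With the replicate block, 14 further genes passed the adjusted threshold. Among those not described above were Spon1, a matrix protein, at 57.4 ± 9.35 CPM in WT libraries and 91.1 ± 10.4 CPM in Ezr-KOm matIMs (SD, n = 3 each; adjusted p = 0.274 without the block and 0.019 with it), and Sult1a1, a sulfotransferase, at 5.30 ± 1.29 and 11.2 ± 4.09 CPM (adjusted p = 0.387 and 0.0223). Xlr3b, a gene of the X chromosome, met the rule in all 3 populations, with log2 fold changes of 1.34 in matIMs, 0.88 in moMs and 1.29 in tnsIMs. Igfbp3, which binds insulin-like growth factors, did so at 1.32, 1.70 and 1.63, with overlapping matIM libraries.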
